A study of Homo sapiens with 27 samples.

Results

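The 9 genes described here (NQO1, HMOX1, GCLM, GCLC, TXNRD1, SLC7A11, SRXN1, AKR1B10 and AKR1C1) are widely used as readouts of the transcription factor NRF2. They were chosen by symbol from 3 read count tables, 1 per prostate cancer cell line, which list 24379 symbols for 22Rv1, 23532 for DU145 and 23462 for PC3. Each member is a row in each table. In every line, 3 libraries carried a control guide (control gRNA 1, labelled wild type) and 6 carried a CRISPR guide against RIPK2, 3 for each of 2 guides. RIPK2 is the kinase that relays signals from the NOD1 and NOD2 receptors. The RIPK2 guides were gRNA 1 and gRNA 10 in 22Rv1, and gRNA 2 and gRNA 10 in DU145 and PC3, and these cells are labelled RIPK2 knockout. The labels do not say whether a population was 1 clone or a pool, or whether replicates were separate cultures, so the p-values measure the spread between these libraries, which may be technical. The study design compares control with RIPK2 knockout cells in each line.

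NRF2, encoded by NFE2L2, is held in the cytoplasm by KEAP1, which presents it to the CUL3 ubiquitin ligase for destruction. Electrophiles and oxidants modify cysteines of KEAP1, and NRF2 then accumulates, pairs with a small MAF protein and binds the antioxidant response element of its target genes, where BACH1 can compete for the same sites. The targets detoxify quinones and carbonyls, make glutathione, recycle thioredoxin and break down heme. Since NRF2 is controlled largely at the protein level, its mRNA does not report its activity. The members are protein-coding genes on 9 chromosomes of GRCh38, placed as in GENCODE 29: NQO1 at chr16:69706996-69726951 on the minus strand, HMOX1 at chr22:35380361-35394214 on the plus strand, GCLM at chr1:93885205-93909456 on the minus strand, GCLC at chr6:53497341-53616970 on the minus strand, TXNRD1 at chr12:104215779-104350305 on the plus strand, SLC7A11 at chr4:138164097-138242349 on the minus strand, SRXN1 at chr20:646615-653370 on the minus strand, AKR1B10 at chr7:134527592-134541408 on the plus strand and AKR1C1 at chr10:4963253-4983283 on the plus strand. The counts are per gene and do not separate exons from introns or UTRs.

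The element core TGACNNNGC, where N is any base, was searched on both strands in RefSeq promoter windows (GRCh38.p14) that run from 250 bases before to 50 bases after a gene's start. Windows were found for 6 of the 9 members (NQO1, GCLM, GCLC, TXNRD1, SRXN1 and AKR1C1). HMOX1, SLC7A11 and AKR1B10 had no entry. Of the 7 windows of these members, 3 held a match (42.9%), against 14 of 44 windows of the other pathway genes (31.8%) and 4687 of 35116 windows of all genes (13.3%). The matches lay in GCLM, the modifier subunit of the enzyme that starts glutathione synthesis, and in both windows of TXNRD1, the cytosolic thioredoxin reductase. By gene, 2 of the 6 members with a window held a match. All 4 matches in the members' windows are shown, and a link between them and the changes given below was not tested. Each is written along the strand that carries the core, 10 bases on either side, with the core in capitals.
GCLM, chr1:93909446-93909474, plus strand, 30 bases before the start: tggaagacaaTGACTAAGCagaaatcgta
TXNRD1, chr12:104215670-104215698, plus strand, 95 bases before the first start: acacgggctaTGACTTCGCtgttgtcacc
TXNRD1, chr12:104215761-104215789, minus strand, 4 bases before the first start: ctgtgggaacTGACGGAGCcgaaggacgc
TXNRD1, chr12:104286920-104286948, minus strand, 98 bases before the second start: agagtcagaaTGACAAAGCagaaatccac
GCLM lies on the minus strand and TXNRD1 on the plus strand. A match is a description of letters in this window and says nothing of binding in these cells.

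Library totals ran from 17958558 to 20650819 counts, and a floor of 3 counts per library corresponds to 0.144 to 0.178 CPM (the library's counts scaled to a common total, with TMM factors within a line). RIPK2 mRNA stood at 52.0% and 32.2% of control in 22Rv1 with gRNA 1 and gRNA 10, at 27.9% and 81.9% in DU145 with gRNA 2 and gRNA 10, and at 34.2% and 45.1% in PC3. The fall with gRNA 10 in DU145 did not pass the test (-0.29 ± 0.11 (SE) on the log2 scale, edgeR adjusted p = 0.061), and mRNA does not show whether a CRISPR edit removed the protein. The third gRNA 1 library of 22Rv1 held 16.7% of its counts in mitochondrial genes, against 0.515% to 2.1% in the other 8 libraries of that line, and the third gRNA 2 library of DU145 had a TMM factor of 0.902, against 0.988 to 1.04 in the rest of its line. The members' changes with these guides that passed, or that gained or lost the call without these libraries, are also given without them. The 4 epithelial markers summed to 733 to 2815 CPM over all groups. Of 8 markers of leukocytes, fibroblasts, endothelium and red blood cells, 1 to 4 were at 0 in all libraries of a group. CD3E was at 0 in 8 of 9 groups, while the leukocyte marker PTPRC was at 0 only with gRNA 2 in DU145. The 8 summed to 7.95 to 9.96, 12.3 to 29.4 and 22.1 to 24.4 CPM in 22Rv1 (control, first guide, gRNA 10). DU145 gave 13.4 to 14.5, 5.53 to 12.6 and 25.3 to 31.5 CPM, and PC3 28.8 to 30.5, 53.9 to 61.65 and 58.7 to 63.6. The part of these marker shifts in the members' changes was not tested.

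The mean control level of each of the 9 members was highest in DU145. All 9 were higher in DU145 than in 22Rv1 control cells, where 75.9% of the 16322 genes tested in the joint fit differed (37.9% higher, 38.0% lower). Against DU145, 7 were lower in PC3 control cells (75.9% of all genes differed, 37.1% higher and 38.8% lower), and against 22Rv1, 6 were higher and 2 lower in PC3 (80.5%, 39.4% higher and 41.1% lower). AKR1B10 is counted as higher in both comparisons with 22Rv1, where its libraries held 0 to 2 counts. It passed the count filter only through the other lines, so these 2 calls were partly set by that filter. In the joint fit of all 27 libraries, line and count table cannot be told apart, and in bulk RNA fewer cells of a type and less RNA per cell cannot be told apart either. NQO1, the quinone reductase, had the largest difference between DU145 and 22Rv1 of the 9 (6.41 ± 0.10 (SE) log2): its control levels were 12.3 ± 1.37 CPM (SD, n = 3) in 22Rv1, 139 ± 2.96 in PC3 and 1050 ± 36.0 in DU145. HMOX1, the inducible heme oxygenase, ran in the same order, at 4.07 ± 0.168, 10.6 ± 0.363 and 142 ± 5.87 CPM. For GCLM the order was PC3, 22Rv1 and DU145, at 16.6 ± 1.75, 41.5 ± 4.75 and 173 ± 3.83 CPM. These 3 genes thus put DU145 at the top, and PC3 between the others or at the bottom.

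GCLC, the catalytic subunit, followed GCLM's order, at 41.5 ± 3.11 CPM in PC3, 105 ± 10.6 in 22Rv1 and 135 ± 2.01 in DU145 control cells. TXNRD1 ran from 346 ± 9.18 CPM in 22Rv1 through 830.2 ± 16.6 in PC3 to 2262 ± 31.2 in DU145. The controls did not overlap between lines for NQO1, HMOX1, GCLM, GCLC, TXNRD1, SLC7A11 or AKR1B10. The share of all genes without such overlap was not counted, so this is not read as a trait of the members. By the joint test, 75.9% to 80.5% of all genes differed between the controls of 2 lines. SLC7A11, the cystine carrier that supplies glutathione synthesis, was at 54.6 ± 8.68 CPM in 22Rv1, 97.1 ± 5.82 in PC3 and 115 ± 5.97 in DU145, and its PC3 and DU145 levels did not differ by the joint test (-0.094 ± 0.16 (SE) on the log2 scale, edgeR adjusted p = 0.61). SRXN1, which reactivates overoxidised peroxiredoxins, was at 1.13 ± 0.141 CPM in PC3, 1.23 ± 0.384 in 22Rv1 and 6.94 ± 0.883 in DU145, with PC3 and 22Rv1 not separated (0.025 ± 0.33, edgeR adjusted p = 0.95). The aldo-keto reductases were read from few counts. AKR1B10 was at 0.0714 ± 0.0309 CPM in 22Rv1 (1 or 2 counts a library), 0.514 ± 0.174 in PC3 and 1.34 ± 0.304 in DU145. AKR1C1 was at 1.23 ± 0.0518 CPM in 22Rv1, 1.84 ± 0.433 in PC3 and 2.44 ± 0.316 in DU145. Its DU145 and PC3 levels were not separated (-0.26 ± 0.29, edgeR adjusted p = 0.43), and its rise from 22Rv1 to PC3 (0.73 ± 0.33, edgeR adjusted p = 0.044) lost the call in 8 of 34 alternatives, with adjusted p-values up to 0.21.

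**Figure D1:**
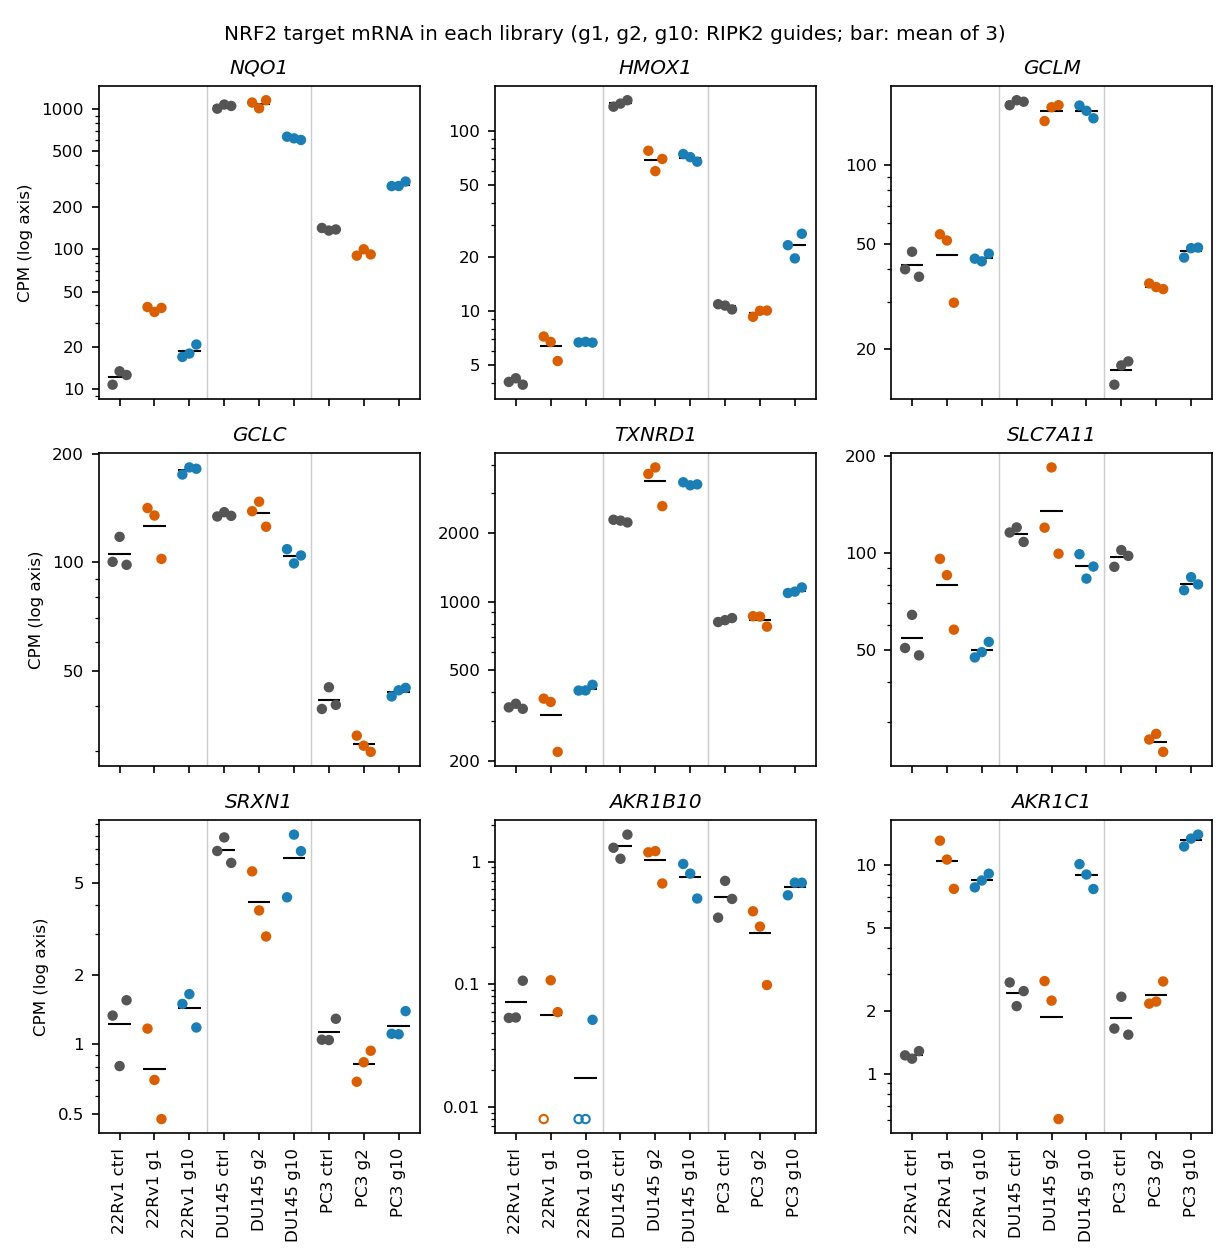
CPM of the 9 members in each of the 27 libraries, on log axes that differ between panels, with control libraries in grey, the first RIPK2 guide (g1 or g2) in orange and gRNA 10 (g10) in blue, a bar at the mean of 3, and open symbols for libraries at 0 counts. NQO1 and HMOX1 rise over control with both guides in 22Rv1, fall with gRNA 10 in DU145, and rise with gRNA 10 in PC3.

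Which members passed the test with a RIPK2 guide differed by line and guide, as counted here. The spread between replicates (edgeR coefficient of variation) was smallest among PC3 libraries, at 3.55%, against 12.3% for DU145 and 14.2% for 22Rv1. With gRNA 10, SLC7A11 passed at -0.27 log2 in PC3 and did not at -0.33 in DU145. The counts here and below are thus not read as a difference in response between lines, which was tested separately in the joint fit. In 22Rv1, 4 of the 8 members tested rose with gRNA 1, where 48.5% of all 15198 genes tested passed (25.6% higher, 22.9% lower). With gRNA 10, 4 rose as well (40.6% passed, 20.0% higher and 20.6% lower). In DU145, 1 rose and 1 fell with gRNA 2, where 34.0% of 14908 genes passed (17.1% higher, 17.0% lower). With gRNA 10, 2 rose and 3 fell (40.0%, 20.2% higher and 19.8% lower). In PC3, 1 rose and 3 fell with gRNA 2, where 63.6% of 14718 genes passed (32.1% higher, 31.5% lower). With gRNA 10, 5 rose and 1 fell (73.5%, 37.9% higher and 35.6% lower). The members' shares were 50%, 50%, 22.2%, 55.6%, 44.4% and 66.7% in the same order, with 8 or 9 members behind each, and are not set apart from the background here. The median log2 change of the members was 0.40 with gRNA 1 and 0.43 with gRNA 10 in 22Rv1 (all genes, 0.02 and -5.6e-06), -0.11 and -0.33 with gRNA 2 and gRNA 10 in DU145, and -0.41 and 0.43 in PC3. The guides of a line share their control libraries, so their changes are set side by side and not compared as independent evidence. The libraries of a guide did not overlap the control libraries for 3 of the 8 members tested with gRNA 1 in 22Rv1 (55.7% of all genes) and 5 with gRNA 10 (64.2%). In DU145 this held for 4 of 9 members with gRNA 2 (46.6%) and 8 with gRNA 10 (68.6%), and in PC3 for 6 with gRNA 2 (67.6%) and 6 with gRNA 10 (74.8%). Without the third gRNA 1 library of 22Rv1, 6 members passed with gRNA 1 (54.6% of all genes in that fit) and 5 with gRNA 10 (58.3%), the additions being GCLM and GCLC with gRNA 1 and TXNRD1 with gRNA 10. Without the third gRNA 2 library of DU145, 3 passed with gRNA 2 (45.8% of all genes in that fit), adding SLC7A11, and 7 with gRNA 10 (58.4%), adding SLC7A11 and AKR1B10. With only the libraries compared, 8 passed with gRNA 10 in DU145 (66.2% of all genes). The share of all genes called was higher in these fits too. A gene called changed has an edgeR quasi-likelihood adjusted p below 0.05, over all genes tested in its contrast.

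**Figure D2:**
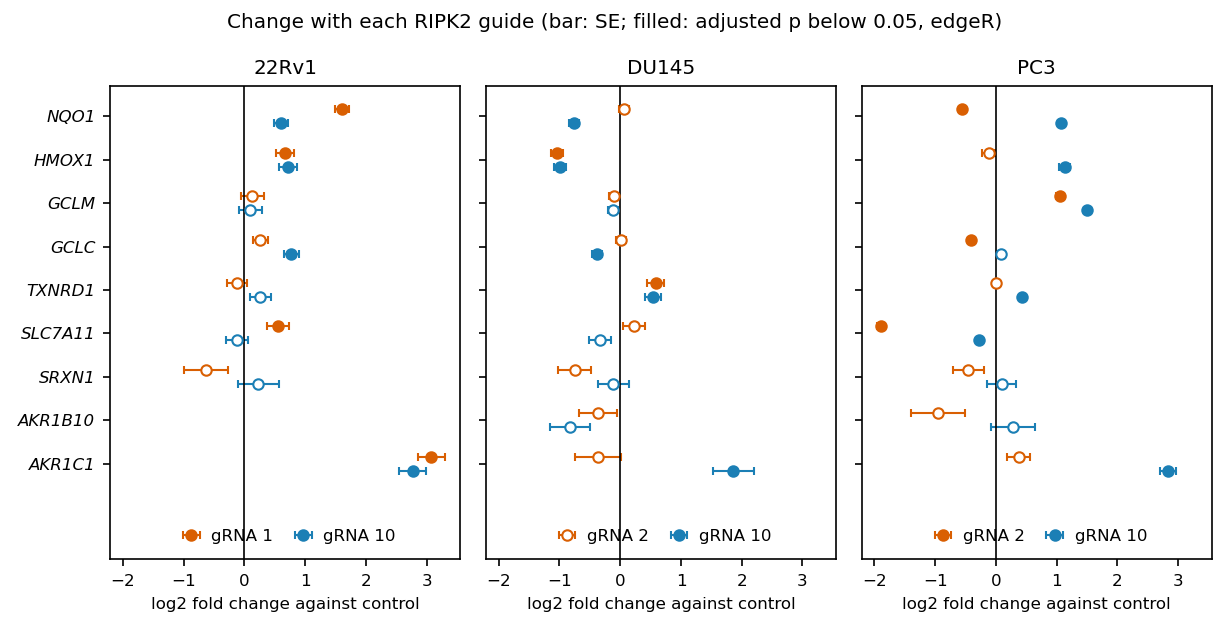
Log2 fold change of each member against the control guide, with its standard error, for the first RIPK2 guide (orange) and gRNA 10 (blue) in each line; filled points passed an edgeR adjusted p of 0.05, and AKR1B10 was not tested in 22Rv1. AKR1C1 lies far to the right with both guides in 22Rv1 and with gRNA 10 in DU145 and PC3.

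NQO1 reduces quinones without passing through radical intermediates. In 22Rv1 its control libraries held 10.8, 13.5 and 12.7 CPM, the gRNA 1 libraries 38.8, 35.7 and 38.2 and the gRNA 10 libraries 17.1, 18.0 and 20.9. Every knockout library lay above every control library, and gRNA 1 lay above gRNA 10. NQO1 rose by 1.61 ± 0.12 (SE) on the log2 scale with gRNA 1 (edgeR adjusted p = 2.3e-06, and 1.59 without the third library) and by 0.60 ± 0.12 with gRNA 10 (edgeR adjusted p = 0.0022). In DU145 the control libraries held 1011, 1082 and 1057 CPM, the gRNA 2 libraries 1117, 1017 and 1161 and the gRNA 10 libraries 638, 620.3 and 604. The gRNA 2 libraries overlapped the controls (0.066 ± 0.084, edgeR adjusted p = 0.58), while gRNA 10 lay below all of them (-0.76 ± 0.084, edgeR adjusted p = 7.3e-05). In PC3 the control libraries held 142, 136 and 139 CPM, gRNA 2 90.2, 100.2 and 92.1 and gRNA 10 283, 284 and 305. The guides went opposite ways in PC3, with -0.56 ± 0.043 for gRNA 2 (edgeR adjusted p = 1.2e-12) and 1.06 ± 0.041 for gRNA 10 (edgeR adjusted p = 2.8e-20), and the groups did not overlap.

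HMOX1 breaks heme into biliverdin, iron and carbon monoxide, and BACH1 represses it. In 22Rv1 the control libraries held 4.05, 4.24 and 3.91 CPM, gRNA 1 7.23, 6.75 and 5.29 and gRNA 10 6.71, 6.76 and 6.69. Both sets of knockout libraries lay above the controls, by 0.66 ± 0.15 (SE) log2 with gRNA 1 (edgeR adjusted p = 0.0043, and 0.77 without the third library) and 0.72 ± 0.15 with gRNA 10 (edgeR adjusted p = 0.0028). In DU145, where it is most abundant, the controls held 136, 142 and 148 CPM, gRNA 2 77.7, 59.9 and 70.0 and gRNA 10 74.5, 71.6 and 67.6. It fell with each guide, by 1.04 ± 0.099 and 1.00 ± 0.099 (SE) log2 (edgeR adjusted p = 5.5e-05 and 3.9e-05), and the gRNA 2 change was -1.04 without the third library. In PC3 the controls held 10.9, 10.7 and 10.2 CPM, gRNA 2 9.31, 10.0 and 10.1 and gRNA 10 23.2, 19.6 and 26.9. The gRNA 2 libraries lay just below the controls and did not pass the test (-0.12 ± 0.11, edgeR adjusted p = 0.36), and HMOX1 rose with gRNA 10 by 1.13 ± 0.092 (edgeR adjusted p = 3.7e-11).

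Glutathione synthesis is limited by the ligase that GCLC and GCLM form, and in PC3 the modifier subunit GCLM rose with each guide. The PC3 control libraries held 14.6, 17.3 and 17.9 CPM, gRNA 2 35.4, 34.3 and 33.7 and gRNA 10 44.4, 48.2 and 48.5. The 3 groups did not overlap, and the changes were 1.06 ± 0.067 (SE) log2 with gRNA 2 (edgeR adjusted p = 1.4e-14) and 1.50 ± 0.064 with gRNA 10 (edgeR adjusted p = 3.7e-19). GCLM did not pass the test in DU145, where the controls held 169, 176 and 174 CPM, gRNA 2 147, 166 and 169 and gRNA 10 168, 161 and 151. In 22Rv1 the controls held 40.1, 46.7 and 37.5 CPM, gRNA 1 54.5, 51.6 and 29.9 and gRNA 10 44.0, 43.0 and 45.9. The third gRNA 1 library was the lowest of these 9. Without it the gRNA 1 change was 0.35 log2 in place of 0.13 (edgeR adjusted p = 0.0056 in place of 0.59); its mitochondrial share was 16.7%, and the part of that share in the result was not tested.

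GCLC moved apart from GCLM. In 22Rv1 the controls held 100.2, 118 and 98.3 CPM, gRNA 1 141, 135 and 102 and gRNA 10 175, 183 and 182. All gRNA 10 libraries were above the other 6, a rise of 0.77 ± 0.13 (SE) log2 (edgeR adjusted p = 6.5e-04), while gRNA 1 overlapped the controls (0.26 ± 0.13, edgeR adjusted p = 0.11, and 0.38 with an edgeR adjusted p of 0.001 without the third library). In DU145 the controls held 134, 138 and 134 CPM, gRNA 2 138, 147 and 125 and gRNA 10 109, 99.2 and 104. Only the gRNA 10 change passed (-0.38 ± 0.080, edgeR adjusted p = 0.0038). In PC3 the controls held 39.2, 45.0 and 40.2 CPM, gRNA 2 33.0, 31.0 and 29.8 and gRNA 10 42.4, 44.1 and 44.8. GCLC fell with gRNA 2 (-0.41 ± 0.058, edgeR adjusted p = 3.8e-07), and gRNA 10 overlapped the controls (0.079 ± 0.055, edgeR adjusted p = 0.2). Within a library the number of GCLM counts per 100 GCLC counts does not depend on library scaling. In PC3 it was 40.0 ± 3.9 (SD, n = 3) in control, 110.3 ± 2.99 with gRNA 2 and 107.4 ± 2.4 with gRNA 10. In 22Rv1 it was 39.3 ± 0.989 in control, 35.4 ± 5.28 with gRNA 1 and 24.6 ± 1.02 with gRNA 10, and in DU145 128.0 ± 1.7, 117.9 ± 14.9 and 153.8 ± 8.93. Without the third library the means were 38.4 with gRNA 1 in 22Rv1 and 109.4 with gRNA 2 in DU145. The PC3 knockout libraries, at 104.7 to 113.1, did not overlap the PC3 controls, at 37.2 to 44.4.

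**Figure D3:**
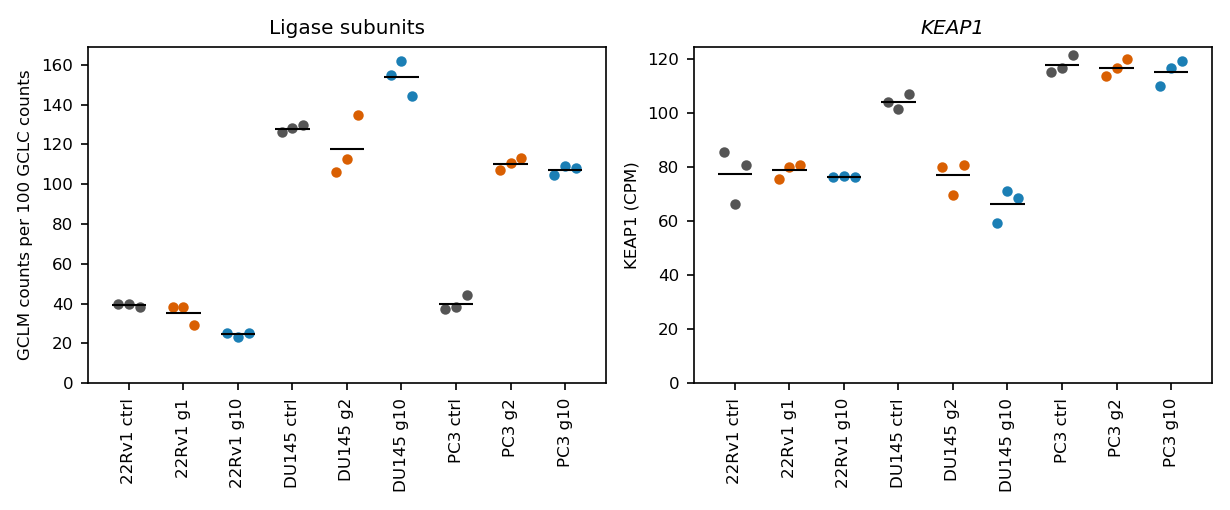
Left, GCLM counts per 100 GCLC counts in each library; right, KEAP1 in CPM; bars are means of 3 and both axes start at 0. The PC3 knockout libraries sit at 104.7 to 113.1 in the left panel, above the PC3 controls at 37.2 to 44.4, and the DU145 knockout libraries are below the DU145 controls in the right panel.

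SLC7A11 exchanges glutamate for cystine, the precursor of the cysteine in glutathione. In PC3 the controls held 90.8, 102 and 98.2 CPM, gRNA 2 26.5, 27.6 and 24.3 and gRNA 10 76.8, 84.4 and 80.1. SLC7A11 fell by 1.89 ± 0.056 (SE) log2 with gRNA 2 (edgeR adjusted p = 1.6e-22), the largest fall of any member, and by 0.27 ± 0.049 with gRNA 10 (edgeR adjusted p = 1.2e-05). In 22Rv1 the controls held 50.9, 64.5 and 48.3 CPM, gRNA 1 96.1, 85.6 and 58.0 and gRNA 10 47.6, 49.4 and 53.2. The gRNA 1 libraries overlapped the controls, and the rise of 0.55 ± 0.17 (edgeR adjusted p = 0.024) lost the call in 5 of 16 alternatives (adjusted p up to 0.089). Without the third library it was 0.73 (edgeR adjusted p = 7.9e-05). In DU145 the controls held 116, 120.3 and 108 CPM, gRNA 2 120.1, 185 and 99.7 and gRNA 10 99.4, 83.5 and 91.0. The gRNA 2 libraries spread over both sides of the controls (0.23 ± 0.18, edgeR adjusted p = 0.36, and 0.41 with an edgeR adjusted p of 0.021 without the third). The gRNA 10 libraries lay below the controls but did not pass (-0.33 ± 0.19, edgeR adjusted p = 0.18). Without the third gRNA 2 library, which enters the estimate of the spread, the gRNA 10 change was -0.33 with an edgeR adjusted p of 0.029.

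TXNRD1 keeps thioredoxin reduced with electrons from NADPH. In DU145, its most abundant setting, the controls held 2289, 2269 and 2228 CPM, gRNA 2 3639, 3886 and 2627 and gRNA 10 3344, 3243 and 3274. All 6 knockout libraries lay above the 3 controls, by 0.58 ± 0.13 (SE) log2 with gRNA 2 (edgeR adjusted p = 0.0082, and 0.74 with an edgeR adjusted p of 2.7e-07 without the third library) and 0.54 ± 0.13 with gRNA 10 (edgeR adjusted p = 0.0093). In PC3 the controls held 814, 829 and 847 CPM, gRNA 2 863, 860.0 and 777 and gRNA 10 1091, 1107 and 1154. TXNRD1 rose with gRNA 10 (0.43 ± 0.038, edgeR adjusted p = 1.8e-11), and gRNA 2 overlapped the controls (0.0055 ± 0.038, edgeR adjusted p = 0.91). In 22Rv1 the controls held 343, 356 and 338 CPM, gRNA 1 375, 363 and 219 and gRNA 10 407, 408 and 431. The gRNA 10 libraries lay above the controls without passing (0.26 ± 0.17, edgeR adjusted p = 0.23), and without the third gRNA 1 library, which was the lowest and enters the estimate of the spread, this change was 0.27 with an edgeR adjusted p of 6.8e-04. The gRNA 1 change was -0.12 with that library and 0.08 without it.

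SRXN1 reactivates peroxiredoxins that hydrogen peroxide has overoxidised, and was read from few counts. In DU145 the controls held 6.86, 7.86 and 6.10 CPM, gRNA 2 5.60, 3.80 and 2.93 and gRNA 10 4.33, 8.08 and 6.85. The gRNA 2 libraries lay below the controls, with a change of -0.75 ± 0.27 (SE) log2 (edgeR adjusted p = 0.053, 0.027 with DESeq2, and a change of -0.56 with an edgeR adjusted p of 0.061 without the third library). With edgeR, SRXN1 passed in 0 of 6 guide contrasts (1 at an unadjusted p below 0.05, and 1 with DESeq2). In the other lines its libraries ran from 8 to 32 counts in 22Rv1 and from 14 to 29 counts in PC3.

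AKR1B10 reduces aldehydes and retinal, and AKR1C1 reduces ketosteroids such as progesterone. AKR1B10 held 0 to 2 counts in every 22Rv1 library, below the floor of 3 counts. In DU145 the AKR1B10 counts were 27, 22 and 34 in control, 24, 25 and 12 with gRNA 2 and 19, 16 and 10 with gRNA 10. In PC3 they were 7, 14 and 10 in control, 8, 6 and 2 with gRNA 2 and 11, 14 and 14 with gRNA 10. With edgeR, AKR1B10 passed against control in 0 of the 4 contrasts tested (2 at an unadjusted p below 0.05, and 0 with DESeq2). It passed in 2 of 15 alternatives with gRNA 10 in DU145, where the edgeR adjusted p was 0.0195 without the third gRNA 2 library. With gRNA 2 in PC3 it passed in 2 of 14 alternatives.

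AKR1C1 had the largest rises of the 9. In 22Rv1 the controls held 1.23, 1.18 and 1.29 CPM, gRNA 1 13.0, 10.6 and 7.67 and gRNA 10 7.79, 8.41 and 9.06. The rises were 3.08 ± 0.22 (SE) log2 with gRNA 1 (edgeR adjusted p = 1.6e-06, and 3.25 without the third library) and 2.77 ± 0.22 with gRNA 10 (edgeR adjusted p = 3.5e-06), and the lowest knockout library was above the highest control. In DU145 the controls held 2.74, 2.11 and 2.49 CPM, gRNA 2 2.78, 2.24 and 0.608 and gRNA 10 10.1, 8.98 and 7.65. The gRNA 10 rise was 1.86 ± 0.34 (edgeR adjusted p = 0.0016), while gRNA 2 overlapped the controls (-0.36 ± 0.38, edgeR adjusted p = 0.49, and 0.04 without the third library, which held 11 counts). In PC3 the controls held 1.65, 2.34 and 1.54 CPM, gRNA 2 2.17, 2.22 and 2.77 and gRNA 10 12.2, 13.3 and 13.9. The gRNA 10 rise was 2.83 ± 0.13 (edgeR adjusted p = 2.8e-18), and gRNA 2 overlapped the controls (0.37 ± 0.19, edgeR adjusted p = 0.087).

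AKR1C1 cannot be read alone. Its longest open reading frame is 98.05% identical to that of AKR1C2 (953 of 972 bases) and 91.87% identical to that of AKR1C3, so the authors' counting may have split or dropped reads shared between them. AKR1C3 makes testosterone from androstenedione, and AKR1C2 inactivates dihydrotestosterone. In 22Rv1, AKR1C2 rose by 4.44 ± 0.26 and 2.33 ± 0.27 (SE) log2 with gRNA 1 and gRNA 10 (edgeR adjusted p = 4.9e-07 and 5.8e-05), and AKR1C3 by 4.11 ± 0.13 and 1.74 ± 0.13 (edgeR adjusted p = 5.8e-09 and 3.2e-06). In DU145, AKR1C2 fell with gRNA 2 (-1.95 ± 0.53, edgeR adjusted p = 0.017, lost at 0.053 without the second control library and at 0.055 with only the libraries compared) and rose with gRNA 10 (1.88 ± 0.39, edgeR adjusted p = 0.0037); AKR1C3 fell with gRNA 2 (-1.41 ± 0.22, edgeR adjusted p = 0.0011) and did not pass with gRNA 10 (0.23 ± 0.21, edgeR adjusted p = 0.41). In PC3 with gRNA 2, AKR1C3 rose by 0.73 ± 0.097 (edgeR adjusted p = 1.1e-07) and AKR1C2 did not pass (-0.72 ± 0.35, edgeR adjusted p = 0.07). In PC3 with gRNA 10, AKR1C2 rose by 3.92 ± 0.17 and AKR1C3 by 1.33 ± 0.090 (edgeR adjusted p = 2.9e-19 and 3.4e-14). The sum of the 3 genes is less open to splitting of shared reads, but it does not make up for reads that were dropped. In 22Rv1 the sum was 5.97 ± 0.458 CPM (SD, n = 3) in the controls, 99.9 ± 17.8 with gRNA 1 and 27.1 ± 0.378 with gRNA 10. In DU145 the sum was 17.1 ± 1.36 CPM in control, 7.09 ± 3.21 with gRNA 2 and 31.5 ± 3.89 with gRNA 10. In PC3 it was 9.63 ± 0.503, 14.5 ± 1.04 and 42.5 ± 1.49 CPM. The groups of each line did not overlap in this sum. Without the third library its mean was 110.2 CPM with gRNA 1 in 22Rv1 and 8.92 CPM with gRNA 2 in DU145. AKR1C1 made up 9.58% to 33.3% of the summed counts across libraries.

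**Figure D4:**
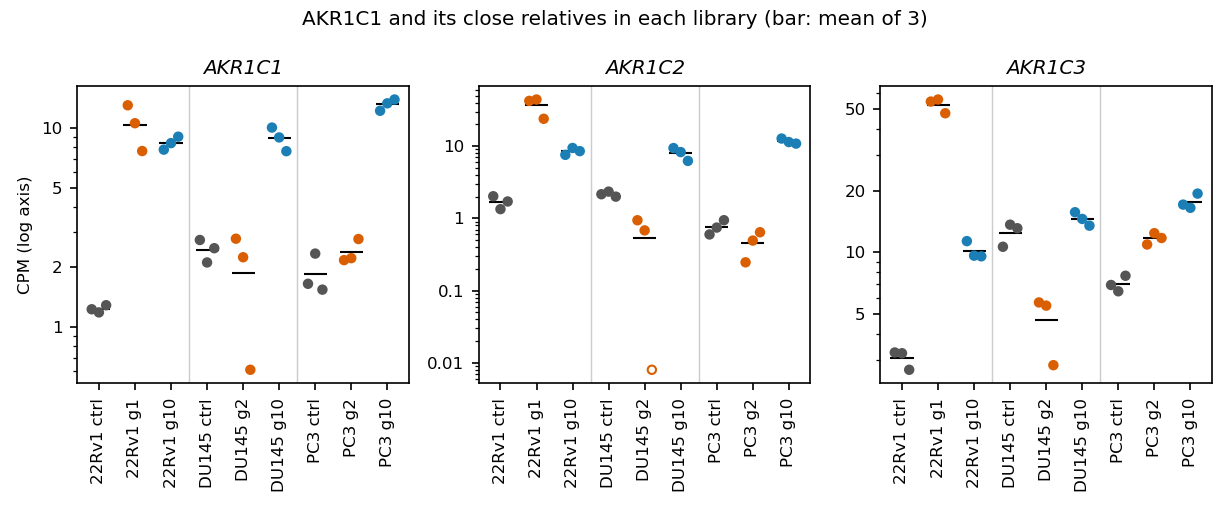
CPM of AKR1C1, AKR1C2 and AKR1C3 in each library on log axes, with control libraries in grey, the first RIPK2 guide in orange, gRNA 10 in blue, bars at means of 3 and an open symbol for a library at 0 counts. In 22Rv1 all knockout libraries of each gene sit above the controls, with AKR1C2 and AKR1C3 higher with gRNA 1 than with gRNA 10.

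The members were also compared between the guides of a line. In 22Rv1, gRNA 10 stood above gRNA 1 for 1 member, GCLC, and below it for NQO1 and SLC7A11 (37.5% of the members tested and 35.6% of all genes differed, 16.8% higher and 18.8% lower). In DU145, gRNA 10 stood above gRNA 2 for AKR1C1 and below it for NQO1, GCLC and SLC7A11 (44.4% of the members, against 38.8% of all genes, 19.6% higher and 19.2% lower). In PC3, 8 of 9 members were higher with gRNA 10 than with gRNA 2 (88.9%, against 73.4% of all genes, 36.9% higher and 36.5% lower), all but SRXN1. In 22Rv1 the SLC7A11 difference (-0.68) lost its call without the first gRNA 10 library (edgeR adjusted p = 0.053). The SLC7A11 difference in DU145 (-0.56) lost its call in 6 of 16 alternatives and was -0.27 without the second gRNA 2 library. The PC3 differences ran from 0.42 ± 0.038 (SE) log2 for TXNRD1 to 2.46 ± 0.12 for AKR1C1. For NQO1 the difference was 1.63 ± 0.042 (edgeR adjusted p = 1.1e-24), and for SLC7A11 1.62 ± 0.057 (edgeR adjusted p = 3.6e-21). The AKR1B10 difference in PC3 (1.23 ± 0.42, edgeR adjusted p = 0.01) rests on libraries of 2 to 14 counts and was 0.85 and not called without the third gRNA 2 library. The mitochondrial share was 2.9% to 3.2% in the PC3 gRNA 10 libraries and 4.34% to 4.69% in the other PC3 libraries, and its part in these differences was not tested.

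The change with a guide was also compared between the lines that received it. For gRNA 10, 3 members rose in 22Rv1 and fell in DU145 with a difference that passed (33.3% of the members, against 44.7% of all genes): NQO1 by -1.37 ± 0.12 (SE) log2, HMOX1 by -1.73 ± 0.17 and GCLC by -1.16 ± 0.13. Between PC3 and 22Rv1, 3 members differed (33.3%, against 47.6% of all genes), with the change more positive in PC3 for GCLM and NQO1 and less so for GCLC. Between PC3 and DU145, the change was more positive in PC3 for 5 members (55.6%, against 48.1% of all genes), among them HMOX1 by 2.10 ± 0.15 and NQO1 by 1.79 ± 0.11, which fell in DU145 and rose in PC3. GCLC, which fell in DU145 and did not pass in PC3, differed by 0.43 ± 0.14. For gRNA 2, 6 members differed between PC3 and DU145 (66.7%, against 35.9% of all genes), with SLC7A11 at -2.13 ± 0.23. The gRNA 10 effects on SRXN1, TXNRD1, SLC7A11 and AKR1B10 did not pass this test between any pair of lines. For TXNRD1 these differences were 0.27 ± 0.19, 0.13 ± 0.19 and -0.14 ± 0.19 (SE) log2.

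KEAP1, the repressor of NRF2, fell in DU145, where the controls held 104, 102 and 107 CPM, gRNA 2 80.0, 69.7 and 80.9 and gRNA 10 59.2, 71.2 and 68.5. The groups did not overlap with the controls, and the changes were -0.44 ± 0.093 (SE) log2 with gRNA 2 (edgeR adjusted p = 0.0052) and -0.65 ± 0.093 with gRNA 10 (edgeR adjusted p = 3.7e-04). KEAP1 stayed between -0.031 and 0.023 log2 in the 4 contrasts of 22Rv1 and PC3, without passing. NFE2L2 itself fell in PC3 with gRNA 2 (-0.66 ± 0.050, edgeR adjusted p = 8.5e-13), and its rise with gRNA 2 in DU145 (0.29 ± 0.094, edgeR adjusted p = 0.039) lost the call in 8 of 16 alternatives. MAFK, a small MAF partner, rose in 22Rv1 by 1.20 ± 0.21 and 1.82 ± 0.21 with gRNA 1 and gRNA 10 (edgeR adjusted p = 8.8e-04 and 5.8e-05). In DU145 it fell with gRNA 2 (-0.45 ± 0.10) and rose with gRNA 10 (0.51 ± 0.10), and in PC3 it rose with gRNA 2 (0.40 ± 0.040) and did not pass with gRNA 10 (-0.019 ± 0.041). BACH1, the competing repressor, fell with gRNA 1 in 22Rv1 (-0.58 ± 0.16, edgeR adjusted p = 0.011) and in PC3 by 0.39 ± 0.067 and 0.37 ± 0.066 (SE) log2 with gRNA 2 and gRNA 10. SQSTM1, which can draw KEAP1 into autophagy, rose in PC3 by 0.34 ± 0.035 and 0.86 ± 0.035 and fell in DU145 by 0.42 ± 0.11 and 0.57 ± 0.11, the gRNA 2 fall losing its call in 3 of 16 alternatives (adjusted p up to 0.073). In 22Rv1 it rose with gRNA 1 (0.63 ± 0.11) and fell with gRNA 10 (-0.52 ± 0.11). Of the 10 regulators, 5 and 4 passed with gRNA 1 and gRNA 10 in 22Rv1 (48.5% and 40.6% of all genes), 7 and 5 with gRNA 2 and gRNA 10 in DU145 (34.0% and 40.0%), and 9 and 5 in PC3 (63.6% and 73.5%).

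NFE2L3, a relative of NRF2, rose in 5 of the 6 guide contrasts. In 22Rv1 its rise was 0.51 ± 0.14 (SE) log2 with gRNA 1 and 1.69 ± 0.14 with gRNA 10, in DU145 0.70 ± 0.083 and 0.78 ± 0.083 with gRNA 2 and gRNA 10, and in PC3 0.64 ± 0.048 with gRNA 2, while gRNA 10 there did not pass (0.043 ± 0.050, edgeR adjusted p = 0.44). MAFF, another small MAF protein, rose in 22Rv1 by 0.66 ± 0.20 and 0.70 ± 0.20 and with gRNA 2 in DU145 by 0.58 ± 0.18, calls that were lost in 1, 2 and 4 of 16 alternatives. In PC3 it fell with gRNA 2 (-0.31 ± 0.060) and rose with gRNA 10 (0.53 ± 0.055). MAFG, the remaining small MAF gene, fell with gRNA 10 in DU145 (-0.57 ± 0.079) and with gRNA 2 in PC3 (-0.25 ± 0.045). CUL3, the ligase scaffold, fell with gRNA 2 in PC3 (-0.56 ± 0.044), and its rise there with gRNA 10 (0.12 ± 0.042) was lost in 1 of 16 alternatives. MAFG and CUL3 did not pass in their other 4 contrasts. NFE2L1, which also binds antioxidant response elements, fell with gRNA 2 and rose with gRNA 10 in PC3 (-0.48 ± 0.033 and 0.10 ± 0.032), and its rise with gRNA 2 in DU145 (0.29 ± 0.082) was lost in 4 of 16 alternatives, and its other 3 contrasts did not pass.

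Of 43 other genes of the pathway, 22 of 39 tested changed with gRNA 1 in 22Rv1 (17 higher, 5 lower, beside 48.5% of all genes) and 23 of 39 with gRNA 10 (16 higher, 7 lower, beside 40.6%). In DU145, 18 of 42 changed with gRNA 2 (7 higher, 11 lower, beside 34.0%) and 20 of 42 with gRNA 10 (10 higher, 10 lower, beside 40.0%). In PC3, 33 of 40 changed with gRNA 2 (16 higher, 17 lower, beside 63.6%) and 35 of 40 with gRNA 10 (25 higher, 10 lower, beside 73.5%). Their median log2 change was 0.19 and 0.21 in 22Rv1, -0.06 and 0.01 in DU145, and -0.09 and 0.17 in PC3, beside medians over all genes of 0.02, -5.6e-06, 0.01, 9.1e-04, 0.01 and 0.01. GPX2, a glutathione peroxidase, went from 1 count over the 3 controls to 189 counts with gRNA 1 and 138 with gRNA 10, a ratio of 195.7 (95% exact interval 34.7 to 7768) and 132.9 (23.5 to 5287) by counts alone. ABCC3, an exporter of conjugates, had 0 counts in the controls and its mean with gRNA 1 was at least 7.61-fold higher, taking 3 counts per library as the floor. For gRNA 10 the bound was at least 1.82-fold higher. GPX2 and ABCC3 passed the count filter only through knockout libraries, so their calls as higher were partly set by that filter. ABCC3 averaged 1.22 CPM with gRNA 1 and 0.292 CPM with gRNA 10, and was tested through gRNA 1. Both genes are included in the 22Rv1 counts above. ABCC2, a related exporter, rose by 3.57 ± 0.19 and 2.65 ± 0.19 (SE) log2. GGT1, which breaks glutathione down outside the cell, fell by 0.70 ± 0.26 and 1.49 ± 0.27, and PRDX6, a peroxiredoxin, by 0.36 ± 0.083 and 0.34 ± 0.083. The GGT1 fall with gRNA 1 (edgeR adjusted p = 0.043) lost its call in 11 of 16 alternatives, with adjusted p-values up to 0.13.

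In DU145, ABCC2 rose by 0.91 ± 0.17 and 2.08 ± 0.17 (SE) log2 with gRNA 2 and gRNA 10, ME1, which makes NADPH, rose by 0.25 ± 0.081 and 0.25 ± 0.081, and ABHD4 fell by 0.54 ± 0.093 and 1.00 ± 0.094. The ME1 rises lost their calls in 9 and 7 of 16 alternatives, with adjusted p-values up to 0.14 and 0.16, and at 0.076 and 0.067 with the replicate block. ALDH3A1, an aldehyde dehydrogenase, had 19, 22 and 17 counts in the DU145 controls and 0 in all 6 knockout libraries, at least 6.07-fold lower with gRNA 2 and at least 6.2-fold lower with gRNA 10. ALDH3A1 passed the count filter in DU145 only through the controls, so its calls as lower there were partly set by that filter. In PC3 the same gene rose by 2.79 ± 0.054 and 1.87 ± 0.057. The ferritin chains FTH1 and FTL, which store the iron that HMOX1 releases, fell in PC3: FTH1 by 0.96 ± 0.038 with gRNA 2 and 1.42 ± 0.038 with gRNA 10, FTL by 0.69 ± 0.038 and 0.80 ± 0.038. IDH1, a source of NADPH, fell there by 0.94 ± 0.045 and 0.39 ± 0.043, and AKR1B1, aldose reductase, rose by 0.74 ± 0.30 and 1.45 ± 0.27. The AKR1B1 rise with gRNA 2 lost its call in 4 of 15 alternatives and was 0.39 (edgeR adjusted p = 0.29) without the second gRNA 2 library. TKT, of the NADPH-producing pentose phosphate pathway, fell in 22Rv1 by 0.70 ± 0.094 and 0.59 ± 0.094 and in DU145 by 0.50 ± 0.12 (adjusted p = 0.052 with only the libraries compared) and 0.59 ± 0.12, and rose in PC3 by 0.38 ± 0.037 and 0.69 ± 0.037.

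ATF4, the factor of the amino acid response, also drives SLC7A11. Of 12 genes of this response, 7 changed with gRNA 1 (6 higher, 1 lower, beside 48.5% of all genes) and 7 with gRNA 10 in 22Rv1 (5 higher, 2 lower, beside 40.6%). In DU145, 11 changed with gRNA 2 (10 higher, 1 lower, beside 34.0%) and 9 with gRNA 10 (2 higher, 7 lower, beside 40.0%). In PC3, 11 changed with gRNA 2 (2 higher, 9 lower, beside 63.6%) and 7 with gRNA 10 (6 higher, 1 lower, beside 73.5%). ATF4, ASNS, CHAC1 and TRIB3 fell in PC3 with gRNA 2, at -0.23, -0.46, -0.83 and -0.86 log2, and rose with gRNA 10, at 0.27, 0.62, 0.41 and 1.70. In DU145 they ran the other way, at 0.46, 0.84, 0.95 and 0.69 with gRNA 2 and -0.39, -0.48, -0.70 and -0.75 with gRNA 10, where the CHAC1 call was lost in 2 of 16 alternatives. In 22Rv1 they stood at 0.53, 0.80, 0.52 and 0.65 with gRNA 1, CHAC1 not passing, and at 0.25, 0.27, 1.11 and 0.49 with gRNA 10, ATF4 and ASNS not passing and the TRIB3 call lost in 6 of 16 alternatives. PHGDH and VLDLR rose with gRNA 2 in PC3 and DDIT4 fell with each guide there; these 3 were named after their values were seen.

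**Figure D5:**
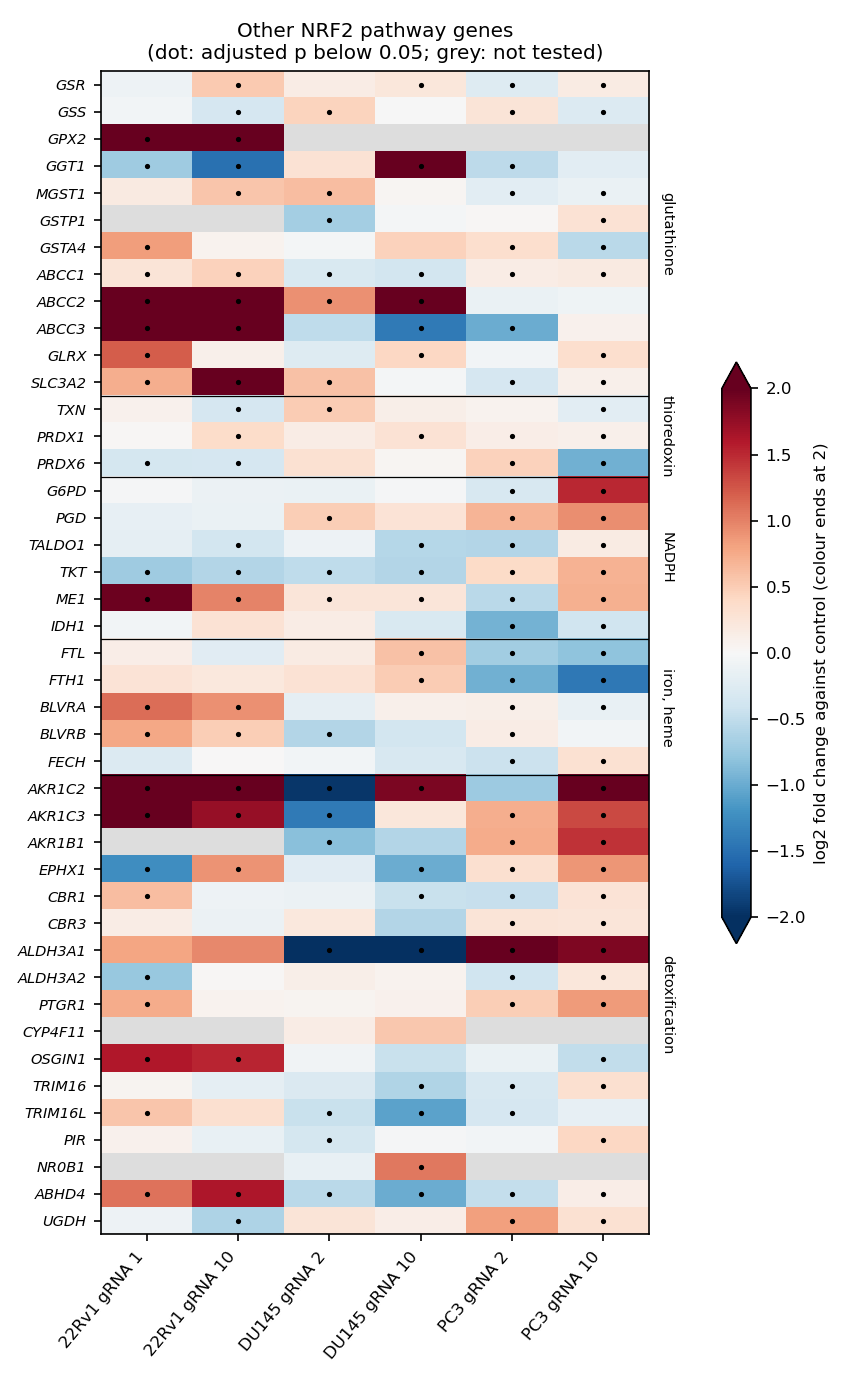
Log2 fold change of the 43 other pathway genes (rows, grouped by role) in the 6 guide contrasts (columns), red for higher and blue for lower than the control guide, with colour ending at 2, black dots at an edgeR adjusted p below 0.05 and grey cells not tested. GPX2, ABCC2 and ABCC3 are red in both 22Rv1 columns, FTH1 and FTL blue in both PC3 columns.

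Likeness between members was measured by correlation. Over the 27 libraries, the median Pearson r of log2 CPM over the 36 member pairs was 0.59, and 28 pairs were positive. After each line's mean was subtracted the median was 0.31, and 34 pairs were positive. These values share lines, libraries and scaling and are given as a description. Among 10501 other genes, the 5 with the highest median r to the members over all 27 libraries were FAM83A (0.90), SNX6 (0.89), POPDC3 (0.89), EREG (0.89) and B4GALNT1 (0.88). Within lines they were ATP9B (0.64), NAP1L4 (0.62), CARS1 (0.61), WDR72 (0.61) and C11orf49 (0.61). These genes did not follow every member. Their lowest r to a member ran from -0.20 (EREG) to 0.0068 (B4GALNT1) over the 27 libraries. Within lines it ran from -0.17 (C11orf49) to 0.19 (ATP9B).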

How the data were processed

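The authors deposited raw read counts per gene symbol, 1 table per cell line and 1 column per library, per the file headers. RNA was total RNA made into strand-specific mRNA libraries, per the labels' protocols. The submitters' processing notes name FastQC, STAR, edgeR and the build hg38, with no role or version. The counting program and annotation are not given in the sources used here. Counts were tested with edgeR 4.0.16 (R 4.3.3) in each line on its 9 libraries, with TMM factors, filterByExpr (minimum count 10, minimum total 15), a robust quasi-likelihood fit and group as the only term. P-values were adjusted by Benjamini-Hochberg over all genes tested, at a threshold of 0.05, and the standard error is the log2 fold change divided by the root of F. Controls of different lines, and guide effects between lines, were compared in 1 fit of all 27 libraries over the 20089 symbols listed in all 3 tables, of which 16322 were tested. The scripts were tested on simulated data. The counts give no length scale, so levels are not compared between genes, and intervals cover counting error only. The alternatives were RLE factors, DESeq2 1.42.0, no filter, a mean of at least 50 counts, each library left out, the replicate block, mitochondrial genes removed, only the libraries compared and, in the joint fit, limma 3.58.1 voom with quality weights.

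The members, gene lists, tests and alternatives were chosen with earlier results of these data known. Named with values are the 9 members, RIPK2, the regulators, AKR1C2 and AKR1C3. Of the other pathway genes, up to 3 per line and direction are named, those called with both guides in 1 direction and with the largest smaller change. Of the ATF4 targets, ATF4, ASNS, CHAC1 and TRIB3 are named. The genes most like the members are the 5 with the highest median Pearson r to the members, from log2(CPM + 1), among genes with a mean of at least 10 CPM.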

Additional observations from a re-analysis of the deposited data

Results flagged for a closer look

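These results were picked out because the change of a member with the same guide differed between lines, by a test of the difference itself in the joint edgeR fit. Each value is the log2 change in the first line named minus that in the second.

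The gRNA 10 change in DU145 minus that in 22Rv1 was -1.37 for NQO1 (edgeR adjusted p = 8.8e-10), -1.73 for HMOX1 (edgeR adjusted p = 4.7e-09) and -1.16 for GCLC (edgeR adjusted p = 8.7e-08). Between PC3 and 22Rv1 the difference was 1.37 for GCLM (edgeR adjusted p = 1.6e-06), 0.43 for NQO1 (edgeR adjusted p = 0.005) and -0.73 for GCLC (edgeR adjusted p = 7.0e-05). Between PC3 and DU145 it was 1.79 for NQO1 (edgeR adjusted p = 9.5e-13), 2.10 for HMOX1 (edgeR adjusted p = 1.0e-11), 1.59 for GCLM (edgeR adjusted p = 1.1e-07), 0.43 for GCLC (edgeR adjusted p = 0.011) and 0.94 for AKR1C1 (edgeR adjusted p = 0.036). The AKR1C1 difference lost its call, at 0.83 to 0.95 with adjusted p-values of 0.053 to 0.10, when control replicate 1 or 3 of DU145 or PC3, or gRNA 10 replicate 2 or 3 of either, was left out.

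For gRNA 2, the change in PC3 minus that in DU145 was 1.16 for GCLM (edgeR adjusted p = 2.7e-05), 0.92 for HMOX1 (edgeR adjusted p = 3.4e-05), -0.64 for NQO1 (edgeR adjusted p = 6.6e-05), -2.13 for SLC7A11 (edgeR adjusted p = 7.5e-08), -0.43 for GCLC (edgeR adjusted p = 0.014) and -0.58 for TXNRD1 (edgeR adjusted p = 0.017). The GCLC difference was -0.35 (adjusted p = 0.078) without PC3 control replicate 2 and -0.38 (adjusted p = 0.064) without PC3 gRNA 2 replicate 3. The TXNRD1 difference was -0.48 (adjusted p = 0.051) without DU145 gRNA 2 replicate 2 and -0.52 (adjusted p = 0.064) without PC3 gRNA 2 replicate 3.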

How the results depend on the processing

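Of the 25 changes of members called against control, 24 kept their call and direction in every alternative run, and SLC7A11 with gRNA 1 in 22Rv1 did not. Over all contrasts 73 of 81 did. Whether replicate numbers pair the libraries is not known. Of the same-numbered pairs, 4 of 9, 3 of 9 and 4 of 9 in 22Rv1, DU145 and PC3 had a correlation above 0.1. Differently numbered pairs in each line also passed 0.1, so these counts cannot decide it. The replicate block left 4, 4, 2, 5, 4 and 6 members called, as without it, while calls over all genes went from 5072 to 4476 with gRNA 2 and from 5956 to 5401 with gRNA 10 in DU145.

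With only the libraries compared, the DU145 calls over all genes moved to 3335 with gRNA 2 and 9749 with gRNA 10, the members called with gRNA 10 in DU145 from 5 to 8, and the other pathway genes there from 20 to 32. With limma voom, 7 members in place of 3 differed in their gRNA 10 effect between DU145 and 22Rv1. With each library left out, the calls over all genes with gRNA 2 in DU145 ran from 3259 (without control replicate 1) to 6958, the other pathway genes there from 14 to 28 (28 without gRNA 2 replicate 3), and the members differing between the guides in 22Rv1 from 2 to 6 (6 without gRNA 1 replicate 3). The cause of these moves was not tested.

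Changes that had not passed the test turned sign with 1 library left out. Against control with gRNA 1 in 22Rv1, GCLM ran from -0.025 to 0.35, TXNRD1 from -0.25 to 0.084 and KEAP1 from -0.082 to 0.095 (log2). With gRNA 10 in 22Rv1, SLC7A11 ran from -0.21 to 0.012 and KEAP1 from -0.12 to 0.056. In DU145, AKR1C1 ran from -0.74 to 0.040, GCLC from -0.033 to 0.082 and SLC7A11 from -0.061 to 0.41 with gRNA 2, and SRXN1 from -0.31 to 0.10 with gRNA 10. In PC3, TXNRD1 ran from -0.022 to 0.054 and KEAP1 from -0.031 to 0.0090 with gRNA 2, and SRXN1 from -0.024 to 0.20 and KEAP1 from -0.054 to 0.0012 with gRNA 10. SRXN1 between the PC3 and 22Rv1 controls ran from -0.20 to 0.22, and was -0.084 with limma voom and -0.0012 with a mean of at least 50 counts. Without a filter, KEAP1 with gRNA 1 in 22Rv1 was -0.032 and TXNRD1 with gRNA 2 in PC3 was -0.0035. Depth limits SRXN1 and AKR1B10, which held few counts in 22Rv1 and PC3.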
